A study of Mus musculus with 4 samples.

Results

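The 10 alpha-defensin genes described here were those with the brightest probes in sorted Lgr5hi intestinal stem cells, namely Defa23, Defa3, Defa42, Defa2, Defa38, Defa36, Defa29, Defa39, Defa40 and the transcribed pseudogene Defa-ps1. They were chosen among the gene symbols starting with Defa, each represented by its brightest probe, by their mean level on the 2 control arrays. The RefSeq table holds 40 such symbols, all on chromosome 8, of which 16 have a named probe and 14 were above background. The 10 are thus 10 of 14 measurable alpha-defensin genes and 10 of 24866 genes tested. Of the genes tested, 14803 have a symbol, and the shares of all genes below include the others. Knockout cells came from Ifnar1-/- mice that carried the knock-in Lgr5-EGFP-Ires-CreERT2, and control cells from mice with that knock-in alone. The Ifnar1 product is part of the type I interferon receptor. In this reporter the Lgr5 locus drives a green fluorescent protein together with an inducible Cre recombinase, and the cells were sorted as Lgr5hi. Mice of both groups had been given poly(I:C), an artificial RNA duplex that sets off interferon production, at 2 mg/kg by intraperitoneal injection daily for 1 week, so neither group was untreated. Each group had 2 samples on single-colour arrays. Knockout 1 and control 1 shared slide 1, and knockout 2 and control 2 shared slide 2. Since the labels do not tell whether the samples were taken from different animals, the p-values cover the spread among these 4 samples alone, and this could be technical. Ifnar1 itself, the deleted gene, had levels of -1.76 and -2.28 in knockout 1 and knockout 2 and of -0.21 and -0.37 in control 1 and control 2, on the log2 scale explained below. Whether its probe lies in the deleted part is not known here.

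Alpha-defensins are small cysteine-rich peptides that disrupt the membranes of microbes. In the mouse they are also called cryptdins and are made by Paneth cells, the granular cells that lie between the Lgr5 stem cells at the base of the small intestinal crypts. In mouse Paneth cells the matrix metalloproteinase Mmp7 cleaves their proforms to the active peptides, and mouse neutrophils, unlike human ones, do not make them. The genes form a cluster of tandem copies whose sequences are very alike, which bears on every value below, because a probe for one copy may also capture the transcript of another.

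To show how alike the copies are, the 250 bases before the annotated transcript start are given for the 5 of the 10 genes that have an entry in the RefSeq promoter table (build GRCm38.p6). They lie at chr8:21378267-21378516 on the plus strand, chr8:21054790-21055039 on the plus strand, chr8:21427178-21427427 on the plus strand, chr8:21096051-21096300 on the minus strand and chr8:21456518-21456767 on the minus strand, in that order, and each is written 5′ to 3′ along its gene. Capitals mark the letters TATAAA, the TATA box, and ATCAAAG, the motif of Tcf/Lef factors, which act at the end of the Wnt pathway.
Defa2: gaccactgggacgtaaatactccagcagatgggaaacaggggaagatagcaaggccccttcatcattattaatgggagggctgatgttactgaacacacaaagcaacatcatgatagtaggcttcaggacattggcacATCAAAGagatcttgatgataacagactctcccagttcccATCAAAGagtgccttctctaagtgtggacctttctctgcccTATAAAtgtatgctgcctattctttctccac
Defa23: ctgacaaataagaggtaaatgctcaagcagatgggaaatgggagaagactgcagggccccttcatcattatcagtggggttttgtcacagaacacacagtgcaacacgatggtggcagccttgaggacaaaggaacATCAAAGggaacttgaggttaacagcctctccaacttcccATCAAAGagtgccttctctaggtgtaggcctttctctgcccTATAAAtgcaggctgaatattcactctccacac
Defa36: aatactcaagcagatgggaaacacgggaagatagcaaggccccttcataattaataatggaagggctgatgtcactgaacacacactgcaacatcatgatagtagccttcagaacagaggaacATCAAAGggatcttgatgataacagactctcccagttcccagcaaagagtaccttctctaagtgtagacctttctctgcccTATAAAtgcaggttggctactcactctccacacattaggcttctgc
Defa38: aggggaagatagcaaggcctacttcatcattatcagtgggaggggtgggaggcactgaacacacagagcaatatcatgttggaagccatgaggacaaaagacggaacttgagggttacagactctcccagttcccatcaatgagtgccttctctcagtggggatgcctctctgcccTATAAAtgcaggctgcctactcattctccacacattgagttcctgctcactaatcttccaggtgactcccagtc
Defa42: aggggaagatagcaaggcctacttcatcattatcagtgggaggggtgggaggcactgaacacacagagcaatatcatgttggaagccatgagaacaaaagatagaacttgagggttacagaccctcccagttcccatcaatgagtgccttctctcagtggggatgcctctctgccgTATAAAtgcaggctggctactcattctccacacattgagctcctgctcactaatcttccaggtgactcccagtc

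Any pair of these windows matched at 80.9% to 97.2% of its aligned bases, most closely Defa38 with Defa42. The likeness reached further outside the 5. Over the 300 bases of the table entry, which also hold 50 bases after the start, Defa2 was letter for letter the same as Defa20, Defa23 as Defa31, Defa36 as Defa37 and Defa42 as Defa43, and none of those 4 partners has a named probe here. Probe and transcript sequences were not analysed here, so whether the probe of one copy also captured another was not tested. TATAAA was present in all 5 windows and in 12.4% of the 32851 promoters in the table, and ATCAAAG in 3 of the 5 and in 3.21% of the 32851, counting both strands; these motifs do not overlap in these windows. Defa2 and Defa23 held ATCAAAG at 2 places, Defa36 at 1, and Defa38 and Defa42 at 0. Of all 16 alpha-defensin promoters in the table, 15 held TATAAA and 13 held ATCAAAG. The core of the interferon-stimulated response element, GAAA followed after any 2 bases by another GAAA, was found in 0 of the 5 windows and in 2.98% of all promoters, and TTCNNNGAA, a STAT motif, in 0 of the 5 and in 7.02%, again on both strands. These are matches of letters within the windows printed.

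**Figure D1:**
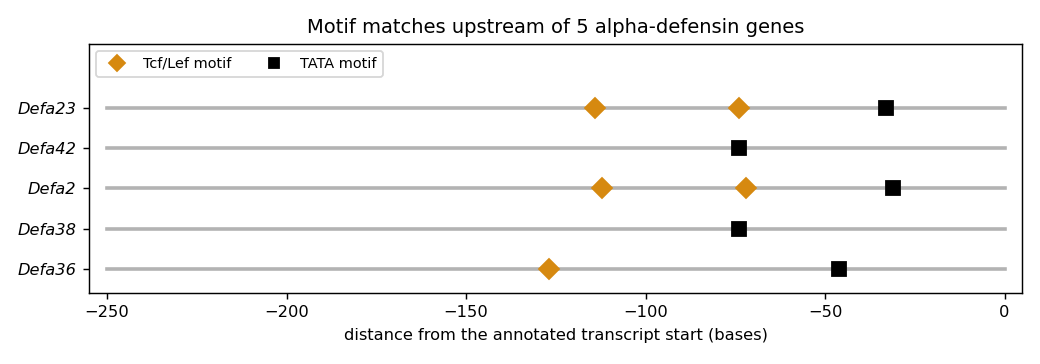
Positions of the Tcf/Lef and TATA motif matches in the 250 bases before the annotated start of 5 alpha-defensin genes, with the distance from the start in bases on the x axis. Defa2 and Defa23 have 2 Tcf/Lef matches each, Defa36 has 1, and Defa38 and Defa42 have a TATA match alone, 74 bases before the start. The TATA match lies 31 bases before the start in Defa2, 33 in Defa23 and 46 in Defa36, so the windows are offset from each other at this motif.

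The question was whether cells sorted from treated mice without Ifnar1 held the same alpha-defensin signal as cells from treated mice with it. They held less. All 10 genes were lower in the knockout than in the control on both slides (27.3% of all genes were), by 2.52-fold (Defa23) to 4.53-fold (Defa36), with a median log2 difference of -1.79, where all genes tested had one of 0.02. Levels are log2 signals relative to the 75th percentile of the same array. Each is a probe's own brightness, so levels of different genes are not amounts of transcript to be ranked. Below, "fell" and "rose" are said of genes with an adjusted p under 0.05 in a limma fit over all genes with a slide block. The planned test was the fit with no block, and the slide block was its listed alternative. With the slide as a block, limma called 12 of the 14 alpha-defensin genes lower and 0 higher after Benjamini-Hochberg adjustment over all genes, 9 of them among the 10, while 0.330% of all genes tested were called lower and 0.0322% higher. With no block it called 0 of the 14, with adjusted p from 0.276 to 1.00, and 0% of all genes. The standard errors of the 10 differences were 0.08 to 0.27 with the block and 0.22 to 0.48 with no block. They are limma's, drawn towards a variance fitted over all genes. In each of the 10 the blocked one was smaller than the gene's own values on the 2 slides would give. For Defa2 the differences on the 2 slides lay 1.21 apart, with a blocked standard error of 0.27. The calls with the block rest on these smaller errors. In sorted bulk RNA, fewer Paneth cells among the sorted cells and less defensin RNA per Paneth cell cannot be told apart. Which of the sorted cells held the defensin RNA was not tested.

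Defa3, Defa23 and Defa2 are listed in RefSeq under older cryptdin names, of which Defcr2 is given for both Defa2 and Defa25 and shows how unsettled the names of the copies have been. Defa3 had levels of 6.22 and 6.74 in knockout 1 and knockout 2 and of 7.99 and 8.26 in control 1 and control 2, and it fell 3.13-fold (adjusted p of 0.00787 by limma with the slide as a block and 0.415 with no block). Defa23, whose probe was the brightest of the family, had 7.28 and 8.24 in the knockout and 8.78 and 9.41 in the control, and it fell 2.52-fold (adjusted p of 0.0145 by limma with the slide as a block and 1.00 with no block). For both genes the 2 groups did not overlap, although for Defa23 knockout 2 came closer to control 1 than to knockout 1. Defa2 was the exception among the 10. Its levels were 5.57 and 7.03 in the knockout and 7.71 and 7.96 in the control, a 2.89-fold lower mean that did not pass (blocked limma fit, adjusted p of 0.157). Its groups did not overlap either, but the knockout samples of Defa2 were far apart, with an SD of 1.03 against 0.18 in the control (n = 2 each). Knockout 2 came closer to control 1 than to knockout 1 in Defa2 too. Its difference of -1.53 was -0.80 without knockout 1 and -2.26 without knockout 2, and that of Defa23, at -1.33, was -0.85 without knockout 1.

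Defa38, Defa39 and Defa29 carry synonyms of the cryptdin-related sequence type, peptides encoded in the same cluster. Defa38 had the tightest knockout pair, at 5.66 and 5.81, with 7.68 and 7.36 in the control, and it fell 3.44-fold. Defa39 had 4.89 and 5.34 in the knockout and 6.91 on both control arrays, and it fell 3.47-fold; both had an adjusted p of 0.0131 in the blocked limma fit, against 0.276 and 0.286 with no block. Defa29 had 4.74 and 5.48 in the knockout, against 7.07 and 7.003 in the control, and it fell 3.81-fold (blocked limma fit, adjusted p of 0.0345). In each of these 3 genes the gap between the groups was wider than the gap between the samples of either group.

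The other 3 protein-coding genes are known in the table otherwise by predicted or locus names alone. Defa42 had 5.62 and 6.38 in the knockout, against 7.93 and 7.94 in the control, and it fell 3.83-fold (blocked limma fit, adjusted p of 0.0282). Defa36 had 4.40 and 5.43 in the knockout and 7.07 and 7.12 in the control. It fell 4.53-fold, the largest difference among the 10 on slide 1 and on slide 2 alike (blocked limma fit, adjusted p of 0.0411). Defa40 had 4.50 and 5.39 in the knockout and 6.26 and 6.56 in the control, and it fell 2.76-fold (blocked limma fit, adjusted p of 0.0361). Groups were apart in all 3, although for Defa40 knockout 2 came slightly closer to control 1 than to knockout 1.

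Defa-ps1 is annotated as a transcribed pseudogene, and its difference lay within the range of the 9 coding genes. It had 4.02 and 4.98 in the knockout, against 6.19 and 6.47 in the control, and it fell 3.56-fold (blocked limma fit, adjusted p of 0.0277). Whether its probe reads the pseudogene or the coding copies was not tested.

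**Figure D2:**
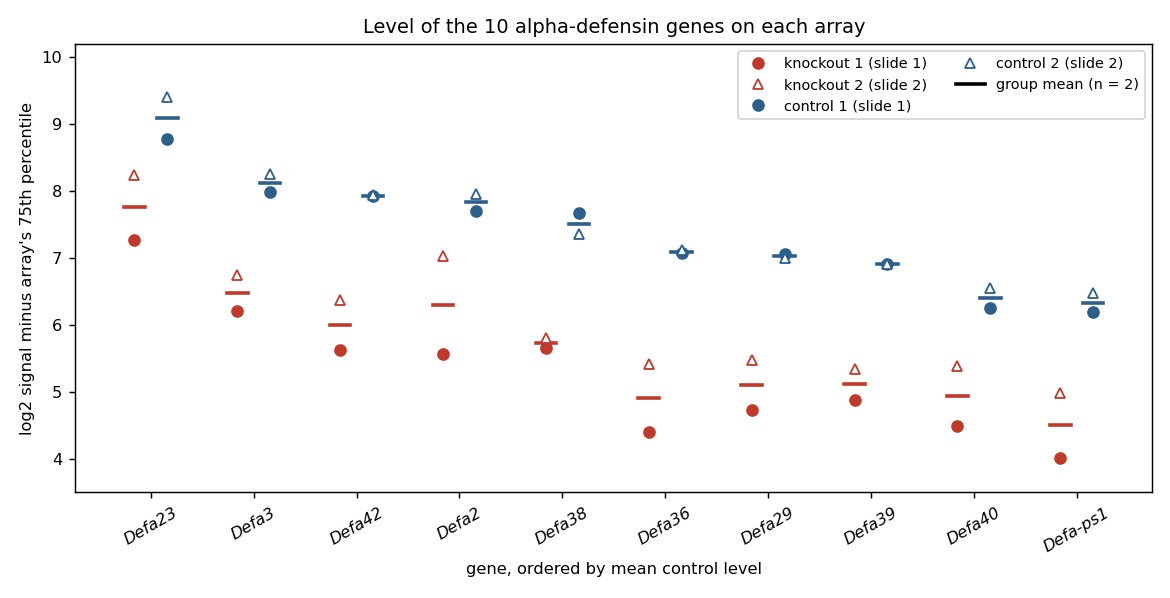
Level of each of the 10 genes on each array, as log2 signal minus the array's 75th percentile, with knockout samples in red at the left of each pair and control samples in blue at the right. Circles are slide 1, open triangles slide 2 and bars group means (n = 2). For each gene both knockout samples lie below both control samples, and knockout 1 lies below knockout 2.

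The tests above belong to the 14 alpha-defensin genes above background, which were taken by name. The control level chose the 10 among them, so the 10 genes' own control values are a description, and a choice on high control values can by itself widen a difference. Ranking on the knockout arrays instead kept 9 of the 10, with Defa21 in place of Defa-ps1, and the median difference was then -1.71; ranking on all 4 arrays kept the same 10. At an unadjusted p under 0.05, 14 of the 14 were lower in either fit, against 1.72% of all genes without the block and 4.93% with it. The blocked fit, which leaves 1 residual degree of freedom, also rests on a variance that follows an intensity trend, and without the trend it called 0 of the 14, with adjusted p from 0.454 to 0.598 (13 of 14 at an unadjusted p under 0.05). Both knockout arrays lay below both control arrays in 14 of the 14 genes, against 11.5% of all genes tested. An exact permutation test of 2 samples against 2 cannot give a two-sided p below 0.333.

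At the boundary of the 10 the step in control level was 0.37, against 0.07 for the step just inside it and 0.34 for the step just outside. The last inside were Defa40 and Defa-ps1, with control means of 6.41 and 6.33, and the next outside were Defa21 and Defa26, with 5.96 and 5.62. Defa21 had 4.03 and 5.23 in the knockout and 6.08 and 5.84 in the control, a 2.51-fold lower mean that did not pass (blocked limma fit, adjusted p of 0.269), and its difference of -1.33 was -0.73 without knockout 1. Defa26 had 3.43 and 4.24 in the knockout, against 5.62 on both control arrays, and it fell 3.45-fold (blocked limma fit, adjusted p of 0.0496). The remaining 2, Defa27 and Defa25, fell 2.09-fold and 3.47-fold, and their adjusted p in the blocked limma fit was 0.0252 and 0.0471. Defa27 had the smallest difference of the 14, -1.06, which was -0.62 without knockout 1 and -0.74 without control 2. The pseudogenes Defa-ps12 and Defa-ps13 have a probe each, not well above background on any of the 4 arrays.

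The difference was larger on slide 1 in each of the 10 genes. Within slide 1 the differences ran from -2.67 (Defa36) to -1.50 (Defa23), with a median of -2.08, which left the knockout at 15.8% to 35.4% of the control signal. Within slide 2 they ran from -1.69 (Defa36) to -0.93 (Defa2), with a median of -1.52, or 31.0% to 52.6% of the control. The median gap between the slides was 0.63 over the 10 genes and -0.01 over all genes tested. Most of this gap lay between the knockout samples. Averaged over the 10 genes, the level was 5.29 in knockout 1 and 6.08 in knockout 2, but 7.36 in control 1 and 7.50 in control 2. Knockout 1 was below knockout 2 in 10 of the 10 genes (57.5% of all genes), and control 1 below control 2 in 8 of the 10 (58.2% of all genes). The order of the genes was partly shared between slides, with a Spearman rho of 0.55 and a Pearson r of 0.52 over the 10 genes, beside a Pearson r of 0.378 over all genes tested. The 10 share arrays, a gene cluster and possibly each other's transcripts. Whether any of the 10 differs from the others in its fall was not tested.

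**Figure D3:**
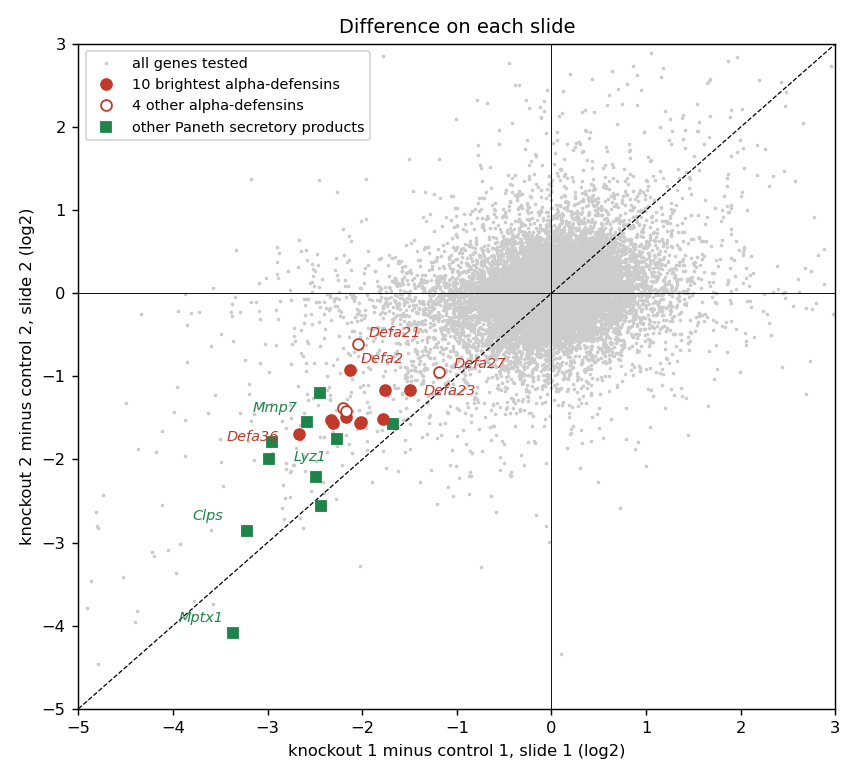
Knockout minus control on slide 1 (x axis) and slide 2 (y axis), both log2, for all genes tested (grey, with 48 genes outside the axes not drawn), the 10 genes (filled red), the 4 other alpha-defensin genes (open red) and other Paneth cell secretory products (green squares). The dashed line marks equal differences. Each of the 10 lies below 0 on both axes and above the dashed line, which means a larger difference on slide 1.

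Genes with more than 1 probe gave a view of how far the value depends on the probe. Of 22 alpha-defensin probes 20 were above background, and 20 of these 20 lay lower in knockout than in control cells on either slide, with differences from -2.36 to -1.06. Defa3 has 3 such probes, whose differences ran from -2.14 to -1.27, about as wide as the range from -2.18 to -1.33 among the 10 genes. Defa36, Defa42 and Defa23 have 2 each, which lay at -2.36 and -2.18, at -2.05 and -1.94, and at -1.62 and -1.33. The dimmer probe of Defa2 gave -2.33 on slide 1 and -1.55 on slide 2, whereas the brighter one, which stands for the gene, gave -2.13 and -0.93. In the mean of both Defa2 probes the difference was -1.74, still short of the threshold (blocked limma fit, adjusted p of 0.0510). In 4 of these 5 genes the brightest probe had the smallest difference, Defa3 being the exception. No alpha-defensin spot was saturated, and the brightest reached 21.5% of the scanner's saturation value, in control 2.

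**Figure D4:**
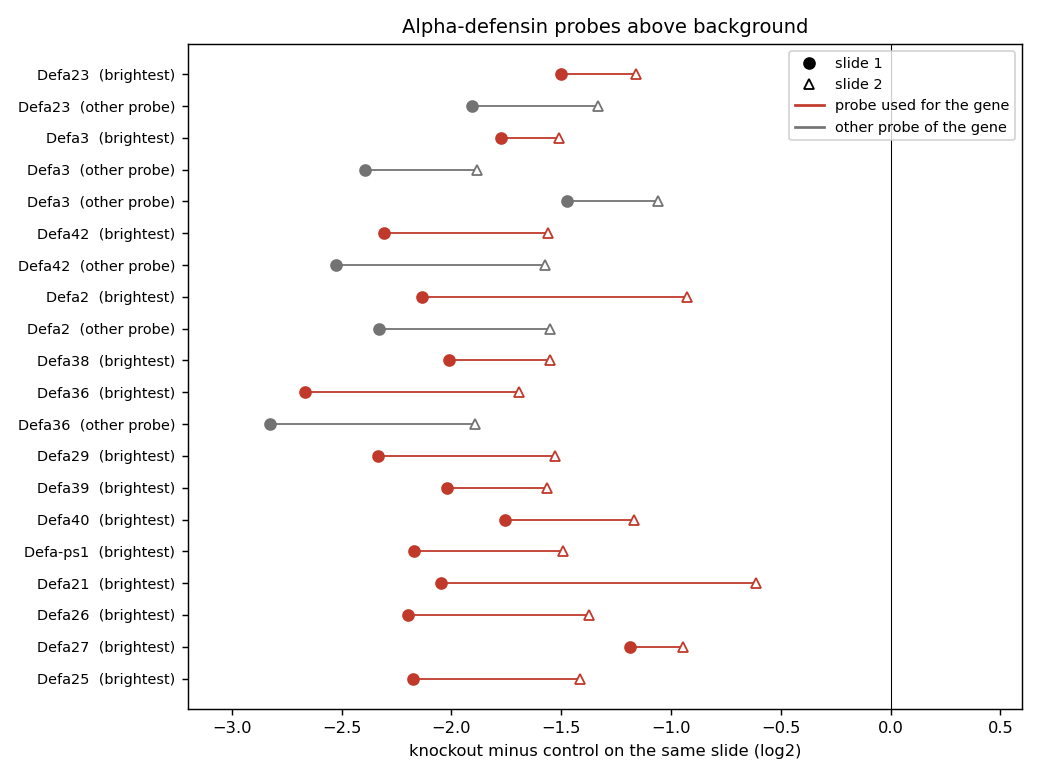
Knockout minus control (log2) within slide 1 (circles) and slide 2 (open triangles) for the 20 alpha-defensin probes above background, grouped by gene in the order of control level. Red marks the brightest probe, which stands for its gene, and grey the other probes. Every probe lies below 0 on both slides.

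Genes listed as other secretory products of Paneth cells were lower too. Of 14 genes for processing, packaging and other secretory products, 10 were measured and Ang5, Ang6, Pla2g2a and Mptx2 have no named probe. The 10 include Reg3a, Reg3b and Reg3g, which are not among the Paneth cell markers used below. Of these 10, 7 fell with the slide block and 0 rose. With no block limma called 0, although 10 of the 10 had an unadjusted p under 0.05. Their median difference was -2.36, with slide 1 at -2.54 and slide 2 at -1.89. Mptx1, a pentraxin-like secreted protein, fell 13.2-fold, and Clps, a colipase, 8.23-fold. Ang4, an antimicrobial angiogenin, fell 5.64-fold, Lyz1, the Paneth cell lysozyme, 4.04-fold and Itln1, a lectin that binds microbial sugars, 3.09-fold. In the blocked limma fit the adjusted p of these 5 lay between 0.00504 and 0.0131. Mmp7, the enzyme that activates the defensins, was singled out for its role after its values were seen. It had 1.76 and 2.85 in the knockout and 4.34 and 4.40 in the control, 4.20-fold lower without passing (blocked limma fit, adjusted p of 0.0561).

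For the 8 measured of 10 listed Paneth cell markers without defensins, the summed linear level, in which the brightest probes weigh most, was 36.0 and 68.0 in the knockout and 165 and 250 in the control, which is 21.8% and 27.2% of the control on slides 1 and 2. All 8 markers, of which 7 also stand in the list of secretory products and the other is Habp2, were above background and lower on both slides, and 6 fell. The 10 genes and the Paneth cell markers thus moved the same way on each slide, and the part of the sorted cells' makeup in the defensin result was not tested. Of 12 measured markers of the sorted stem cells 0 were called by limma in either fit (1, higher, at an unadjusted p under 0.05 in each fit). Their median difference was 0.10, and Lgr5 had 3.32 and 2.93 in the knockout and 3.04 and 2.82 in the control. Their summed level was 160 and 181 in the knockout and 158 and 180 in the control. Ifnar1 fell 3.31-fold (blocked limma fit, adjusted p of 0.0496).

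Medians of other cell lineages lay nearer to 0. The 10 goblet cell markers had a median difference of -0.45 (slide 1 at -0.97, slide 2 at 0.03), and 1 of them, Ccl6, fell. Its difference was -1.50, and that of Spink4, which did not pass, was -1.55 (blocked limma fit, adjusted p of 0.0816). Both lay within the range of the 10 alpha-defensin genes, -2.18 to -1.33. Of the 10 goblet markers 4 were lower on both slides and 1 higher, and the highest difference was 0.66. At an unadjusted p under 0.05 with the block, 3 goblet markers were lower and 1 higher, against 4.93% of all genes lower. The 9 measured enteroendocrine markers had a median of -0.52, and 8 of them were lower on both slides, against 27.3% of all genes. Limma called 0 of the 9 in either fit. At an unadjusted p under 0.05 with the block 5 were lower, against 4.93% of all genes, so this list leaned lower too. Enterocyte and tuft cell markers had medians of 0.37 and 0.08, with 0 called and 3 and 1 higher at that unadjusted p, and the 3 measured fibroblast or endothelial markers one of 0.37, with 0 called and 1 higher. The share of all genes higher at that p was not counted. Of 10 leukocyte markers 1 was called, Lyz2, a lysozyme gene closely related to Lyz1, and their median was 0.04. Of 10 neutrophil markers 3 were measured, with a median of -0.07, while S100a8, S100a9, Mpo, Ngp, Ltf and Cxcr2 were not above background and Ly6g has no named probe. 0 of these 3 had an unadjusted p under 0.05, and limma called 0.

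**Figure D5:**
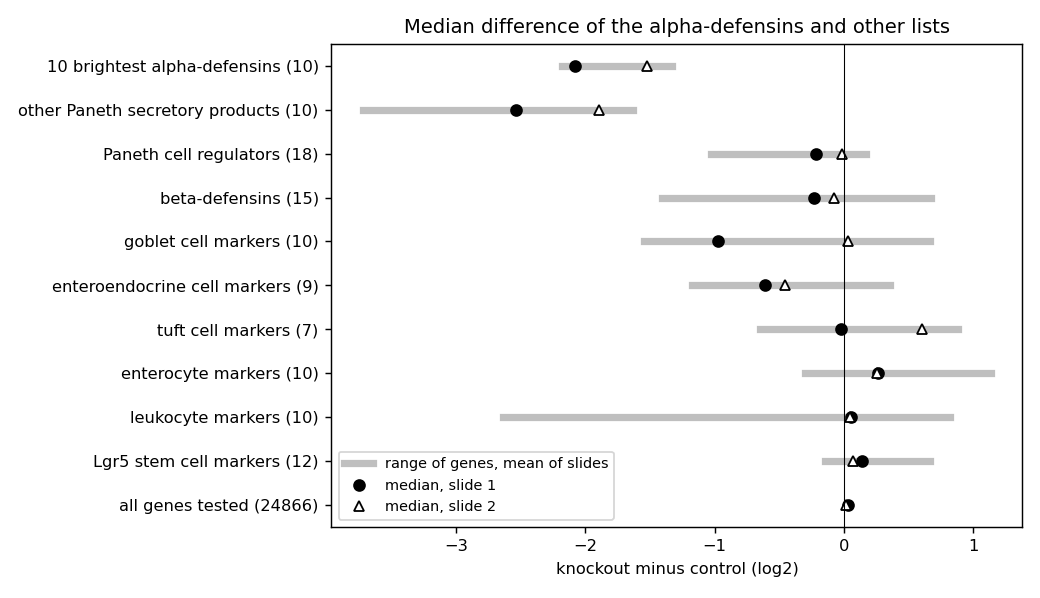
Median knockout minus control difference (log2) of the 10 genes and of other gene lists on slide 1 (circles) and slide 2 (open triangles), with the number of genes measured in brackets. Grey bars run from the lowest to the highest gene of a list, as the mean of the slides. The 10 genes and the other Paneth cell secretory products lie left of 0 throughout, with medians of -2.08 and -2.54 on slide 1.

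Regulators tied to Paneth cells and defensin production were not called. Of 20 listed, 18 were measured, and limma called 0 in either fit. At an unadjusted p under 0.05 with the block, 4 were lower and 0 higher, against 4.93% of all genes lower. On both slides 9 of the 18 were lower and 2 higher, and 27.3% of all genes were lower. Both knockout arrays lay below both control arrays in 6 of the 18, against 11.5% of all genes. The list thus leaned lower without a call. The differences had a median of -0.14, with slide 1 at -0.21 and slide 2 at -0.01. With the smallest p in the blocked fit were 5 genes, Irgm1, an interferon-inducible GTPase, at -1.03, Spdef, a factor of goblet and Paneth cell maturation, at -0.84, Gfi1, a factor of secretory fate, at -0.71, Xbp1, which expands the secretory apparatus, at -0.26, and Atg16l1, an autophagy gene needed for normal Paneth granules, at -0.21. Tcf7l2, which encodes a factor that binds the motif marked in the promoters above, differed by -0.05 on slide 1 and 0.03 on slide 2. It was picked out after its values were seen. Beta-defensins, the related family of many epithelia, have 43 symbols with a probe, of which 15 were measured. Their median difference was -0.17, and limma called 0 in either fit (1 lower at an unadjusted p under 0.05 with the block). Defb15 and Defb22, with the smallest p, differed by -0.50 and -0.55 and did not pass.

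Nucb2, Guca2b, Hpd, Ifi27 and Reg3a had the profiles most like that of the 10 genes over the 4 arrays. Likeness was the root mean square distance between a gene's 4 levels, centred on their mean, and the mean centred profile of the 10, among 13010 named genes above background on all arrays that are not alpha-defensins. It was 0.07 for Nucb2, 0.11 for Guca2b, and 0.15 for each of Hpd, Ifi27 and Reg3a, and from 0.09 (Defa-ps1) to 0.28 (Defa38) for the 10 genes themselves. Nucb2 encodes a calcium-binding secretory protein, Guca2b the gut hormone uroguanylin, Hpd an enzyme of tyrosine breakdown, Ifi27 an interferon-stimulated protein and Reg3a an antimicrobial lectin. Their levels were 2.98-fold (Hpd) to 3.53-fold (Reg3a) lower in the knockout, which is a description, since they were chosen for a profile that is lower there. With 4 arrays many genes can share a profile.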

How the data were processed

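Total RNA of the 4 samples was amplified, labelled with Cy3 and hybridised to Agilent mouse arrays, per the labels' protocols. In the deposited scanner output each spot has a linear intensity, already corrected for background by Agilent Feature Extraction 12.0.3.1 per the file headers (11.5.1.1 per the submitters' processing notes). In the series' own deposited table the intensity of an array is multiplied by 1 constant, with column medians of 239 and 223 in the knockout and 249 and 231 in the control; how the constants were set remains unknown. The array annotation uses another build than the RefSeq tables, so gene positions are not given; promoter coordinates and sequences are RefSeq's, build GRCm38.p6.

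Control spots and spots with outlier flags were left out, log2 signals of a probe's spots were averaged, and each array's 75th percentile over spots was subtracted. Accessions, without versions, named 28331 of 55681 probes. In 1 whole group or in both, 35422 probes stood well above background, giving 24866 genes, each as its brightest probe. Of these, 14803 have a gene symbol, and the rest are transcripts with no matched symbol, each counted as a gene. Between 63.3% and 67.7% of spots were above background, and the number of arrays limits the precision. Groups were compared with limma 3.58.1 in R 4.3.3 (variance with an intensity trend, Benjamini-Hochberg over all genes at 0.05), without and with the slide as a block. The slide is also the replicate number and the scan. It pairs the samples: the gap between the control arrays and that between the knockout arrays had r = 0.563 across genes. "Fell" refers to the fit with the block. Promoters were aligned with Biopython 1.88, end gaps free.

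The genes and lists were chosen with earlier results of these data known. Named were every alpha-defensin gene, Ifnar1, Lgr5, the 5 or fewer genes of each list with the smallest blocked p, and the 5 most like profiles. Ccl6 and Lyz2 were named after their values were seen, as lone calls of their lists. Spink4 was also named after its values were seen. Alternatives were the block, scaling, background correction, the deposited series table, the filter, outlier flags, the probe rule, the variance trend, the ranking of members and leaving out each array; combinations with the block were added after the data were seen. Normexp took the median spot signal, the mean not being used here.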

Additional observations from a re-analysis of the deposited data

How the results depend on the processing

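All 14 alpha-defensin genes kept a negative difference under every alternative tried, of which the block and the variance trend cannot change a difference by construction. The 10 brightest were the same genes under every scaling, background correction, filter and probe rule tried. The median of the 10 stayed between -2.14 (without knockout 2) and -1.47 (without knockout 1). What changed was the number of calls. The fit without a slide term called 0 alpha-defensin genes and 0 genes in all (427 lower at an unadjusted p under 0.05). The paired fit, with the replicate block, called 12 of the 14, 9 of the 10, and 82 lower and 8 higher genes in all. Together with the block, these counts were 12, 9, 123 and 22 with quantile scaling, 13, 10, 184 and 82 with median scaling, 13, 10, 219 and 123 with normexp, 12, 9, 135 and 20 with the authors' deposited table, 14, 10, 426 and 340 with no filter on dim probes, 11, 9, 70 and 8 with probes above background on all 4 arrays, 12, 9, 88 and 13 with outlier spots kept, and 12, 9, 112 and 24 with the mean of a gene's probes. The block without the intensity trend called 0. Leaving out 1 array in the fit without a block, where a lone array is assumed to vary like the other group and passes the filter alone, gave 0 to 4 of the 14, 0 to 3 of the 10, 9 to 80 lower and 0 to 5 higher genes. The calls among the 14 came without knockout 2. The median of the other Paneth secretory products then ran from -2.71 to -1.76. The causes of these shifts were not tested, other than that fewer arrays or probes enter. Defa2 was called in 3 of 10 fits with the block, and Defa21 in 1.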
